A study of Mus musculus with 14 samples.

Results

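Of the 1529 retinoic acid receptor alpha (RARα) peaks in 5 deposited lists, 323 (21.1%) lay outside the main chromosomes. They were chosen by sequence name alone: every peak whose sequence was the mitochondrial genome or an mm10 contig with "random" or "Un" in its name, and not chromosomes 1 to 19, X or Y. Unplaced contigs held 301 of them, contigs assigned to chromosome 4 without a position held 8, and the mitochondrial genome held 14. The peaks fell on 15 contigs, 13 unplaced and 2 assigned, and joined by overlap into 85 regions, 82 on contigs and 3 on the mitochondrial genome.

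The peaks come from CUT&RUN, in which a nuclease tethered to an antibody cuts out the DNA around the bound protein, in 266-6 cells, a line of acinar cells from mouse pancreas. Each culture was kept in stripped medium for 24 h before a further 24 h with its treatment, which was AM580, CD3254, AM+CD, 9-cis retinoic acid or the vehicle DMSO. The labels state no doses and do not spell out AM+CD. The labels name 14 samples, with 2 for AM580 and 3 for each other treatment, but a single peak list serves all samples of a treatment. No difference between lists can therefore be set against replicates, and intervals cover counting error only.

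RARα binds DNA together with a retinoid X receptor (RXR) at response elements made of repeated half-sites, and ligands change which co-regulators the pair recruits. 9-cis retinoic acid is a ligand of both receptor families, AM580 an agonist of RARα and CD3254 an agonist of RXR. Unplaced contigs are pieces of assembled sequence that could not be put on a chromosome, often because they are repeated or duplicated, so that reads from several genomic copies can align to the same contig. Mitochondrial DNA is a small circle in many copies per cell, lies outside the nucleus and carries no nucleosomes, and its non-coding control region holds its promoters and an origin of replication. No sequence letters are shown, since no genome sequence was used here.

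The share of a list that lay on these sequences was 24.5% with DMSO (70 of 286 peaks, 95% Wilson interval 19.9 to 29.8) and 23.0% with 9-cis retinoic acid (46 of 200, 17.7 to 29.3). The AM+CD share was 22.9% (52 of 227, 17.9 to 28.8), the AM580 share 22.0% (71 of 323, 17.8 to 26.8) and the CD3254 share 17.0% (84 of 493, 14 to 20.6). The 5 intervals overlap one another, which does not show that the shares are equal, and differences between the shares were not tested. CD3254 gave the longest list, and with every list trimmed to its 200 peaks of highest −log10 q its share was 27.0%. Of the 50 peaks of highest −log10 q, between 13 (AM580) and 17 (9-cis retinoic acid) were on these sequences. These are shares of the listed peaks, and the lists do not hold every peak that was called. Peak names carry numbers in genome order with gaps, and between the first and last listed peak of the mitochondrial genome and unplaced contigs few numbers are missing except with AM+CD. Counted by numbers, that stretch held 16.8% of the call with DMSO (76 of 453), 17.7% with 9-cis retinoic acid (47 of 265), 11.8% with AM+CD (83 of 701), 9.61% with CD3254 (86 of 895) and 9.54% with AM580 (70 of 734). In covered length of the listed peaks the share was 22.2% (CD3254) to 27.6% (AM580).

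The peaks were unevenly spread over the contigs. JH584304 alone held 98 of 323 (30.3%), and the 7 contigs with most peaks, JH584304, GL456390, GL456393, GL456383, GL456396, GL456392 and GL456389, held 273 (84.5%). Each of these 7 had a peak in every list, as did GL456216 and GL456394 with 1 region each. GL456239 and GL456370 had peaks in 4 lists, GL456381 and the assigned contig JH584292 in 3, and GL456387 in DMSO and CD3254. GL456367 had peaks in CD3254 alone. The gene table places 17 genes on unplaced sequence, 13 of them pseudogenes, 4 long non-coding RNAs and 0 protein coding. It does not say on which contig each lies, so no contig region is tied to a gene here. Of the retinoic acid target genes looked up, Rarb, Cyp26a1, Cyp26b1, Dhrs3, Stra6, Crabp2 and Tgm2 are listed under numbered chromosomes. Of the ribosomal DNA genes looked up, Rn28s1 is listed under chromosome 11 at 112627 to 113046. The table does not name the sequence on which that position counts, and genes on contigs may carry a chromosome number there, so Rn28s1 is neither tied to a contig nor placed on the chromosome itself here. Rn45s and Rn18s are not in the table.

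**Figure D1:**
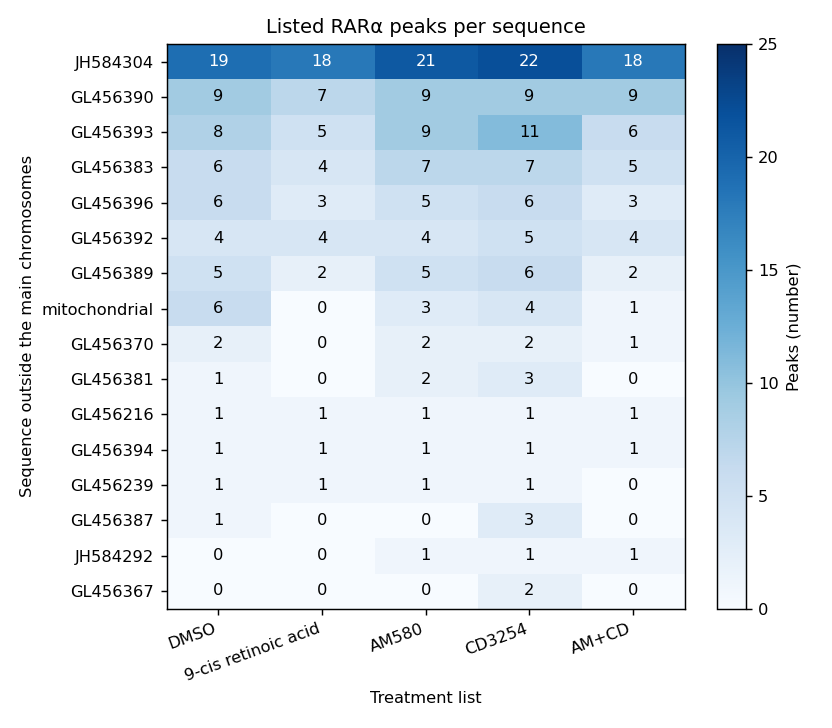
Number of listed peaks on each sequence outside the main chromosomes (rows, ordered by their total) in each treatment list (columns), with darker cells for more peaks. JH584304 has 18 to 22 peaks in every list, while the mitochondrial genome has 6 with DMSO and 0 with 9-cis retinoic acid.

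On the mitochondrial genome, the highest peak of every list that had any stood with its summit in the control region, past the last gene. Its summit was at 15676 with DMSO, 254 bp past the end of the proline tRNA gene TrnP (15356 to 15422), and at 15666 with CD3254, 244 bp past it. With AM580 and AM+CD it stood further on, at 15905 and 15913, 483 and 491 bp past TrnP. These 4 summits thus formed a pair 10 bp apart and a pair 8 bp apart.

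The DMSO control-region peak ran from 12636 to 16053 and had a summit pileup of 178 fragments over a local background of 53.6 (deposited fold 3.28, −log10 q 36.1). The AM580 peak ran from 11004 to 16081 with 257 fragments over 74.1 (fold 3.44, −log10 q 56.6). The CD3254 peak ran from 11041 to 16135 with 270 fragments over 93.6 (fold 2.87, −log10 q 45.0). The AM+CD peak was the shortest, from 13988 to 16208, with 136 fragments over 58.7 (fold 2.29, −log10 q 13.3). These are broad, low elevations: no mitochondrial peak of any list passed a fold of 3.44.

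The other mitochondrial regions had peaks with DMSO, AM580 and CD3254. The first lay over the ribosomal RNA gene mt-Rnr1 (70 to 1024) and, with AM580 and CD3254, the start of mt-Rnr2 (1094 to 2675). Its peaks ran from 108 to 1623 (AM580, fold 1.87), from 132 to 1606 (CD3254, 1.56) and from 532 to 1065 (DMSO, 2.04). The second lay over the complex I genes ND1 (2751 to 3707) and ND2 (3914 to 4951) and part of COX1 (5328 to 6872), the gene of the catalytic cytochrome c oxidase subunit. AM580 had it as 1 peak of 4524 bp, CD3254 as 2 and DMSO as 3, with best folds of 2.17, 2.01 and 1.97. DMSO also had a separate peak at 11286 to 12211 within the span of the control-region peaks of AM580 and CD3254.

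Of the 13 mitochondrial protein-coding genes, 7 met a peak with DMSO, AM580 or CD3254 and 2 (ND6 and CYTB) with AM+CD. ND1, ND6 and the cytochrome b gene CYTB were covered whole in the DMSO, AM580 and CD3254 lists, ND2 and ND5 whole with AM580 and CD3254, and ND4 by 18.8% (DMSO) to 39.3% (AM580). No list had a peak between 6439 and 11004, where COX2, ATP8, ATP6, COX3, ND3 and ND4L lie. The length under peaks was 11118 bp for AM580, 10415 bp for CD3254, 7689 bp for DMSO and 2221 bp for AM+CD.

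**Figure D2:**
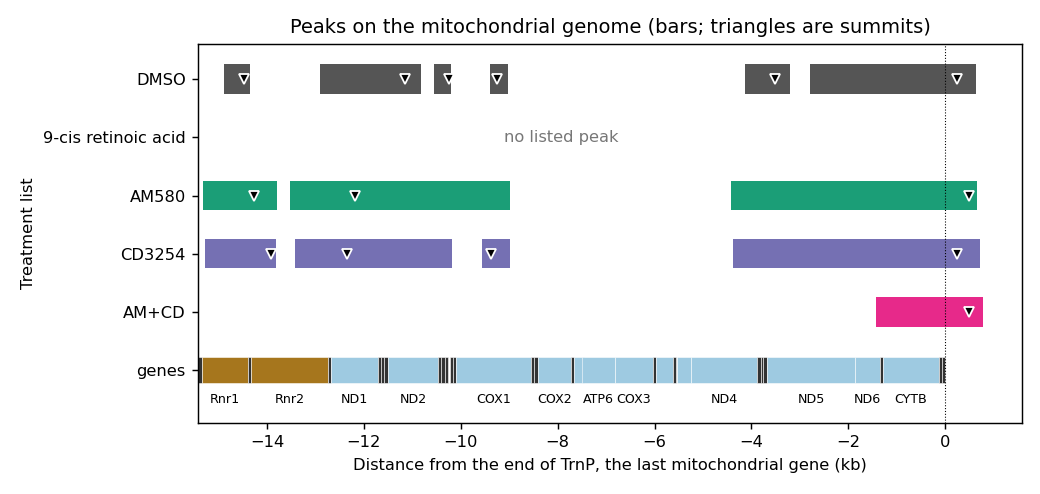
Listed peaks on the mitochondrial genome as bars, 1 row per treatment list, against distance from the end of TrnP in kb, with summits as triangles and genes below (brown rRNA, light blue protein coding, black tRNA). The rightmost summit of the DMSO, AM580, CD3254 and AM+CD lists lies past the last gene, and 9-cis retinoic acid has no listed peak.

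Local background, the coverage that the peak caller took as the expectation at a summit, can be set against the background coverage of the whole list, taken as the lowest local background in it. From highest to lowest that coverage was 2.36 fragments per base (CD3254), 2.13 (AM+CD), 1.32 (DMSO), 0.985 (AM580) and 0.544 (9-cis retinoic acid), and it serves as the depth of each list. At the control-region summit the mitochondrial background was 40.4 times the list's coverage with DMSO, 75.2 times with AM580, 39.6 times with CD3254 and 27.6 times with AM+CD. AM580 was thus 1.86 times DMSO and AM+CD 0.683 times. Scaled instead to the median background of main-chromosome regions held by all lists, the ratios were 1.67 and 0.701. With 1 list each, no error can be estimated for these ratios.

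The absence of mitochondrial peaks from the 9-cis retinoic acid list was set against its depth and its peak numbers, which run in genome order with gaps. Its list skips 1 number between the last chromosome 9 peak and the first unplaced contig, so its call held at most 1 mitochondrial peak. Its coverage was 0.41 times that of DMSO. With the 6 DMSO mitochondrial peaks scaled to that coverage, 1 (the control-region peak) would have passed the lowest −log10 p in the 9-cis retinoic acid list, 5.7. That count rests on the lowest-background scaling alone. It was not repeated under the other scaling, which moves 9-cis retinoic acid by -0.22 log2 units against DMSO. By the same calculation, all 5 DMSO mitochondrial peaks without an AM+CD peak would have passed in the AM+CD list. Whether depth accounts for the missing peaks was not tested. For AM+CD, 5 numbers are missing before its mitochondrial peak, so its call could have held more mitochondrial peaks than the 1 listed.

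JH584304 carried the highest pileups of all these sequences. Its 18 regions shared by every list had summit pileups of 283 to 3998 fragments with CD3254 (median 1430), 268 to 3267 with AM+CD (1151) and 157 to 2586 with DMSO (867). With AM580 they were 105 to 1611 (564), and with 9-cis retinoic acid 98 to 1395 (440). These are not high folds, since the local background was itself 27 to 299 fragments with DMSO and 49.7 to 491 with CD3254, and folds ran from 2.10 (9-cis retinoic acid) to 13.2 (AM580).

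The highest pileup on the contig was at 72888 to 73472, with 3998 fragments (CD3254), 3267 (AM+CD), 2586 (DMSO), 1611 (AM580) and 1395 (9-cis retinoic acid). All 5 summits lay within 4 bp. Next was 103146 to 104723, with 3324, 2915, 2152, 1437 and 1236 fragments in the same order. The region of highest fold, 112881 to 113601, had folds of 11.6, 11.8, 11.9, 13.2 and 10.2, again in that order, over backgrounds of 254, 202, 153, 90.1 and 88.0 fragments. The order of the lists by pileup was the same at these 3 regions and is also their order by background coverage.

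All but 2 of the 23 regions of JH584304 lay between 59085 and 113601. The others stood near the contig's start, at 340 to 1063 in CD3254 alone (65 fragments) and at 2305 to 2577 in AM580 alone (36 fragments). A further CD3254 peak, at 81415 to 81715, stood on 881 fragments but only a fold of 2.12.

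**Figure D3:**
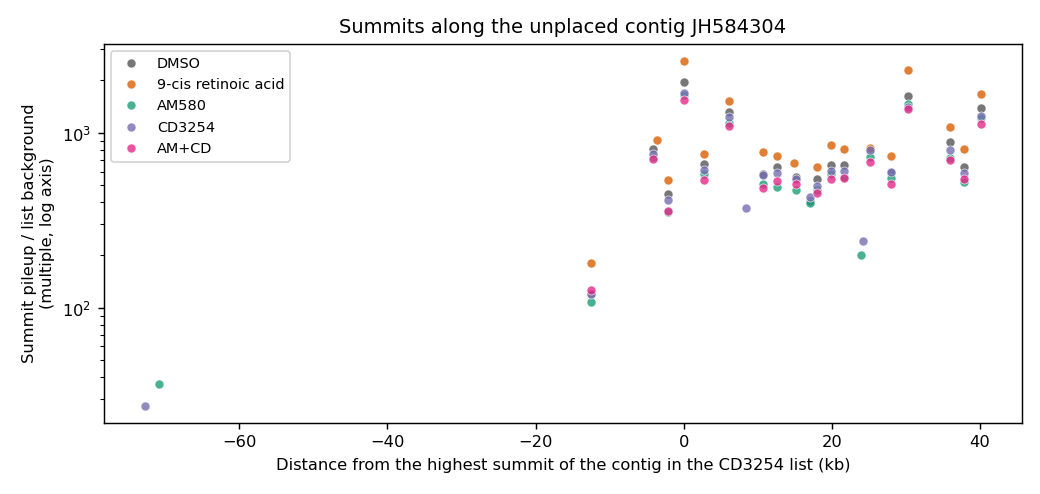
Summit pileup of each JH584304 region divided by the background coverage of its list (log axis) against distance in kb from the highest CD3254 summit of the contig, with 1 colour per list. The lists follow the same profile of high and low summits, with 9-cis retinoic acid uppermost on this scale at the 18 regions that every list holds.

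Other contigs had lower top pileups than JH584304 and often higher folds. The highest pileups among them were at 21846 to 23526 on GL456392, with folds of 11.4 to 15.8. With CD3254 (1608 fragments), AM+CD (1224) and AM580 (685) they were above the median of the shared JH584304 regions. With DMSO (805) and 9-cis retinoic acid (334) they were below it. The region at 49093 to 49547 on GL456216, assigned to chromosome 4, had the highest fold of all 323 peaks: 31.4 with CD3254, 31.3 with AM+CD, 29.8 with DMSO, 29.3 with AM580 and 23.7 with 9-cis retinoic acid. Its pileups were 515, 413, 307, 185 and 128 fragments in that order. All 5 summits of this region lay within 12 bp.

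On GL456370, the region at 26294 to 26625 had folds of 26.9 (DMSO), 25.9 (AM580), 29.8 (CD3254) and 29.3 (AM+CD) and no 9-cis retinoic acid peak. No peak number of the 9-cis retinoic acid list is missing at that place, so its call held no peak there. On GL456389, the region at 10374 to 10945 had folds of 27.3 (AM580), 24.6 (CD3254), 24.1 (AM+CD), 23.5 (DMSO) and 17.7 (9-cis retinoic acid) and summits within 4 bp. The region at 20693 to 21240 on GL456396 had folds of 16.2, 23.4, 22.6, 20.2 and 12.3 in the same order. That at 11070 to 11614 on GL456383 had 19.7, 21.5, 21.9, 19.6 and 14.7, and that at 300 to 1679 on GL456392 had 17.3, 17.5, 18.5, 16.9 and 13.4. A fold belongs to its own list and its own background, so these values rank places within a list and are not compared between lists.

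Folds were lower on the other named contigs. The leading regions of GL456390 (4235 to 4784, pileup 149 with DMSO), GL456393 (19063 to 19548, 46) and GL456381 (3115 to 3495, 37) reached 10.7, 10.6 and 11.1. The first was in every list, and the others in DMSO, AM580 and CD3254. The single region of GL456394 (17528 to 18014) was in every list with folds of 7.48 to 9.66, and that of GL456239 (38060 to 39213) in all but AM+CD with 3.64 to 4.57. The single region of JH584292 (12801 to 13463) was in AM580, CD3254 and AM+CD, with folds of 8.57 to 9.40 on 27 to 46 fragments.

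Compared with the main chromosomes, these peaks stood on a higher local background. The median local background was 21.3 times the list's coverage with DMSO against 3.47 times on the main chromosomes. It was 30.3 against 4.14 for 9-cis retinoic acid, 21.1 against 4.47 for AM+CD, 16.1 against 2.29 for CD3254 and 14.7 against 3.17 for AM580. The ratio was 4.63 to 7.31 and above 1 in 5 of 5 lists (two-sided exact sign-flip permutation test over lists, p = 0.0625, the smallest that 5 lists can give). Median pileup was higher in 5 of 5 lists by 1.85 to 4.16 times, −log10 q by 1.41 to 3.35 times and width by 1.11 to 1.40 times. Median fold was lower in 5 of 5, at 0.533 to 0.769 of the main-chromosome value (p = 0.0625 for each of these by the same permutation test). No unadjusted p of these 5 comparisons can pass 0.05, with 5 lists. The lists come from the same cell line and share many regions, so they are not independent units for this test.

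The higher background was not shared by every contig. On JH584304 the median was 131 (AM580) to 226 (9-cis retinoic acid) times the list's coverage, and on the mitochondrial genome 27.6 (AM+CD) to 77.9 (AM580) times. GL456390, GL456393, GL456383, GL456396, GL456392, GL456389, GL456216, GL456239 and GL456387 were above the main-chromosome median in every list that had a peak there. GL456394 was above it in 3 of 5 lists, GL456370 in 1 of 4, GL456381 in 1 of 3, JH584292 in 0 of 3 and GL456367 in 0 of 1. How many genomic copies stand behind each contig was not tested.

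**Figure D4:**
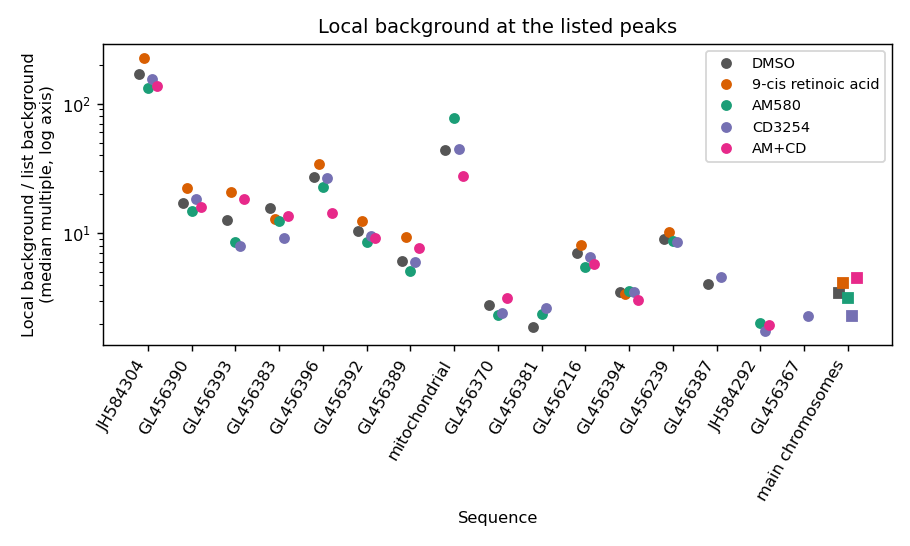
Median local background at the listed peaks of each sequence, as a multiple of the list's background coverage (log axis), with 1 dot per treatment list, and squares for the main chromosomes. JH584304 lies at 131 to 226 and the main chromosomes at 2.29 to 4.47.

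The regions were then sorted by the lists that held them. Every list had a peak at 42 of the 85 regions (49.4%, 39.0 to 59.8), where 28.7% of all 551 union regions were in every list and 24.9% (116 of 466) of those on the main chromosomes. A single list held 15 (17.6%, 11 to 27.1), against 39.7% over all regions. The difference from the main chromosomes was 24.5 percentage points (Newcombe 95% interval 13.4 to 35.6) for regions in every list and -26.1 points (-34.2 to -15.7) for regions in a single list. JH584304 gave 18 of the 42 shared regions. Neighbouring regions are not independent, so these intervals are narrower than the true uncertainty.

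At the 42 shared regions the summits spanned a median of 16.5 bp over the 5 lists. In 33 of 42 they spanned at most 50 bp, and the full range was 4 to 577 bp, the widest at 68512 to 69800 on JH584304. Their scaled pileup, the summit pileup divided by the list's background coverage, was compared over the lists too. The highest list exceeded the lowest by 1.12 to 2.02 times (median 1.40), and by at most 2 times in 41 of 42. These regions were chosen for a peak in every list, and 1 scaling was used. The same ratio was not taken for main-chromosome regions, so it cannot be called small or large against them.

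Of the 9-cis retinoic acid peaks on these sequences, all 46 met a DMSO peak (100%, 92.3 to 100), beside 86.5% of that whole list. In the other direction, 47 of 70 DMSO peaks met a 9-cis retinoic acid peak (67.1%, 55.5 to 77.0), beside 60.1% of all DMSO peaks. The 9-cis retinoic acid list had no peak at the 3 mitochondrial regions or anywhere on GL456370, GL456381, GL456387, JH584292 and GL456367. Of these contigs, JH584292 and GL456367 had no DMSO peak either, and GL456381 and GL456387 had 1 DMSO peak each. Of the 40 regions that this list lacked, 33 fall where no peak number is missing, so that its call had no peak there. Scaled to the 9-cis retinoic acid coverage, 16 of the 23 unmatched DMSO peaks would have passed the lowest −log10 p of that list. The same calculation gave all 3 DMSO peaks without an AM580 peak and all 18 without an AM+CD peak. It used the lowest-background scaling alone and took the lowest listed −log10 p for the call threshold, which is not stated. Whether depth accounts for the unmatched peaks was not tested.

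Of the AM580 peaks, 63 of 71 met a DMSO peak (88.7%, 79.3 to 94.2), beside 76.8% of its whole list. The 8 without DMSO included all 3 of the 85 regions that were in the AM580 list alone, beside 4.72% of all union regions. The first of these was at 55017 to 55407 on GL456393 (fold 6.79, 25 fragments, −log10 q 11.6), the next at 38273 to 38563 on GL456383 (fold 2.94, 31 fragments, −log10 q 3.64). A DMSO peak number is missing where the first lies, so its absence from the DMSO call is not shown. Of the 20 regions that the DMSO list lacked, only 10 fall where no DMSO number is missing. All but 3 of the 70 DMSO peaks met an AM580 peak (95.7%, 88.1 to 98.5), beside 88.1% of all DMSO peaks.

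CD3254 had the most peaks here and the widest reach, with a peak at 82 of the 85 regions, beside 88.9% of all union regions. It was also the longest list (493 peaks) and the list of highest coverage. Trimmed to 200 peaks, the CD3254 and DMSO lists each had 54 peaks here. All 70 DMSO peaks met a CD3254 peak (100%, 94.8 to 100), beside 99.3% of all DMSO peaks. Of its own 84 peaks, 67 met DMSO (79.8%, 70.0 to 87.0), beside 56.6% of its whole list. The 12 of the 85 regions that were in the CD3254 list alone, beside 29.6% of all union regions, had −log10 q of 6.02 to 85.2. They were led by 22407 to 22676 on GL456383 (fold 7.52, 170 fragments over 21.7, −log10 q 85.2) and by the JH584304 region at 81415 (−log10 q 82.5). Both regions of GL456367 (1216 to 1761 and 10237 to 10540) were among the 12. Of the 12, only the region at 81415 falls where no AM+CD peak number is missing. DMSO numbers are missing at some of them too, such as 15538 to 15859 on GL456392. These regions were thus in CD3254 alone among the lists, which does not show absence from the other calls.

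Of the AM+CD peaks, 50 of 52 met DMSO (96.2%, 87.0 to 98.9), beside 89.4% of its whole list. Both exceptions, JH584292 and 50862 to 51426 on GL456393, also had AM580 and CD3254 peaks. In the other direction 52 of 70 DMSO peaks met AM+CD (74.3%, 63.0 to 83.1), beside 72.0% of all DMSO peaks. All 52 AM+CD peaks met an AM580 peak and a CD3254 peak (100%, 93.1 to 100, for each), beside 91.2% and 96.5% of its whole list. No region here was in the AM+CD list alone, in the DMSO list alone or in the 9-cis retinoic acid list alone, beside 0.907%, 0.181% and 4.36% of all union regions.

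What the AM+CD list lacked cannot be read as absence from its call. From its mitochondrial peak to its last unplaced contig peak it holds 50 of 83 peak numbers (60.2%), and of the 33 regions without an AM+CD peak only 1 falls where no number is missing. The other lists hold 90.8% (DMSO) to 98.6% (AM580) of the numbers in that stretch. Over the whole call the listed share was 32.4% (AM+CD) to 75.5% (9-cis retinoic acid).

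The comparisons with DMSO share the DMSO list and are given side by side. The share that met DMSO was above that of the list's main-chromosome peaks by 17.5 percentage points with 9-cis retinoic acid (Newcombe 95% interval 8.24 to 24.3) and by 15.3 points with AM580 (4.62 to 23.3). For CD3254 the excess was 27.9 points (17.0 to 36.6) and for AM+CD 8.73 points (-1.30 to 15.1), the last with an interval that includes 0. In lists trimmed to 200 peaks the differences were 22.5, 6.15, 6.09 and 5.48 points, so that those for AM580, CD3254 and AM+CD were smaller by more than 1.5 times. The compared parts were also unequally complete, since more peak numbers are missing elsewhere than in the mitochondrial and unplaced stretch in each of the 5 lists, which bears on these differences and on those for regions in every list or in a single list. What these differences would be in the full calls was not tested. Between ligand lists, 43 of 46 9-cis retinoic acid peaks met AM+CD (93.5%, 82.5 to 97.8), beside 82.5% of its whole list. AM580 peaks met CD3254 in 68 of 71 (95.8%, beside 90.7% of the whole list), and CD3254 peaks met AM580 in 69 of 84 (82.1%, beside 59.4%). AM+CD was met by 53 of 71 AM580 peaks (74.6%, beside 64.7%) and by 53 of 84 CD3254 peaks (63.1%, beside 44.8%), and 42 of 52 AM+CD peaks met 9-cis retinoic acid (80.8%, beside 70.9%).

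Levels at the 42 shared regions were compared through the scaled pileup. At the 18 JH584304 regions the median log2 ratio to DMSO was 0.29 with 9-cis retinoic acid, -0.11 with CD3254, -0.20 with AM580 and -0.26 with AM+CD. At the 24 regions on other contigs the medians were 0.04, 0.02, -0.13 and -0.08 in that order. The background scaling moves each list as a whole, by -0.22 log2 units for 9-cis retinoic acid and -0.15 for AM580 when the median background of shared main-chromosome regions is used instead. With 9-cis retinoic acid 18 of 18 JH584304 regions were above DMSO under the first scaling and 13 of 18 under the other. Of the 116 main-chromosome regions in every list, 94 and 67 were above it. With AM580 18 of 18 JH584304 regions were below DMSO under both, and with AM+CD 17 of 18 under both. Of the 116 main-chromosome regions, 48 and 69 were below it with AM580, and 68 and 57 with AM+CD. The 18 regions are neighbours on 1 contig, so they are not independent. On the other contigs the 9-cis retinoic acid median flipped from 0.04 to -0.19 under the second scaling.

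Relative to the 116 main-chromosome regions in every list, which no scaling changes, the JH584304 median stood at 0.01 log2 units for 9-cis retinoic acid, -0.04 for CD3254, -0.26 for AM580 and -0.22 for AM+CD. For the other contigs it was -0.23, 0.09, -0.19 and -0.04. Single regions spread over an SD of 0.07 to 0.13 log2 units on JH584304 and 0.14 to 0.23 on the other contigs, and over 0.23 to 0.39 on the main chromosomes. With 1 list per treatment, whether such shifts exceed the spread between replicate cultures cannot be tested.

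**Figure D5:**
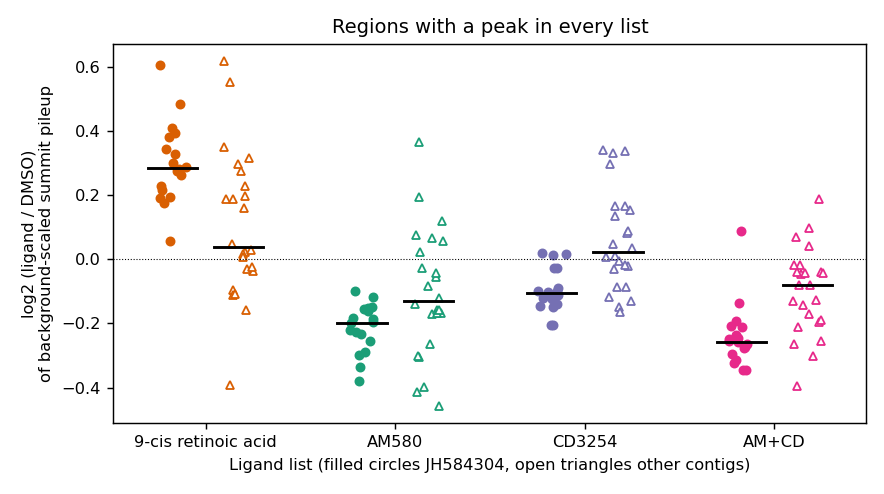
Log2 ratio of the scaled summit pileup of each ligand list to DMSO at the 42 regions with a peak in every list (filled circles the 18 of JH584304, open triangles the 24 of other contigs, black bars medians). The JH584304 medians lie at 0.29 (9-cis retinoic acid), -0.11 (CD3254), -0.20 (AM580) and -0.26 (AM+CD), with the lowest background of each list as the scale.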

How the data were processed

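RARα CUT&RUN peaks were taken from 5 deposited narrowPeak lists, 1 per treatment, which the labels of all 14 samples share. The submitters' processing notes name FastQC, Bowtie2 2.5.1, SAMtools 1.18, MACS2 2.2.7.1, bedtools and genome build mm10. Pooling of replicates, the control, the q threshold and how multiply mapped or duplicate reads were treated: none of these is stated there or in the labels. Each peak has a deposited fold (a ratio over local background), deposited −log10 values of its summit p and q, and a deposited score, 10 times the −log10 q to within 1, which was not used further. Starts are printed 1-based.

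Summit pileup and local background were recovered from the −log10 p (an upper Poisson tail) and the fold, (pileup + 1) / (background + 1). All 1529 peaks fitted a whole pileup within a relative 1.23e-05 (tolerance 0.0002), and 500 of 500 summits were returned when tested on simulated data. The lowest background in a list served as its coverage, and library read totals were not used here. Peaks met when they overlapped by at least 1 bp, and overlapping peaks of all lists were joined into regions. Intervals are 95% Wilson or Newcombe intervals. Peaks here were compared with those of the main chromosomes over the 5 lists by an exact sign-flip test. Gene spans came from the RefSeq table of GRCm38.p6, the assembly behind mm10.

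Named regions are all mitochondrial regions, the region of highest fold on each of the 12 contigs with most peaks, and the up to 2 regions of highest −log10 q in a single list. Others named were chosen after their values were seen. The members and rules were chosen with earlier results of these data known. Alternatives were stricter −log10 q (5 and 10), lists trimmed to 200 peaks, 50% reciprocal or summit overlap, joining within 500 bp, contigs alone and, added after seeing the data, the lists without JH584304, another background scaling and a stricter tolerance. Python 3.11.15, SciPy 1.17.1 and statsmodels 0.14.6 were used.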

Additional observations from a re-analysis of the deposited data

How the results depend on the processing

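No paired analysis was possible because each treatment has 1 peak list, and for the same reason no replicate could be left out. Trimmed to 200 peaks, the CD3254 list had 54 peaks on these sequences (27.0%), and regions in a single list numbered 8 in place of 15. The share that met DMSO was then 91.3% with 9-cis retinoic acid, 96.1% with AM580 and 94.4% with CD3254, and the CD3254 difference from the main chromosomes 6.09 points. Without JH584304, 9-cis retinoic acid had 28 peaks and AM+CD 34, regions in every list numbered 24, and the shares of the lists were 19.1% (DMSO), 16.6% (AM580), 16.3% (AM+CD), 15.4% (9-cis retinoic acid) and 13.2% (CD3254). These were the 15 values that moved, and why they moved was not tested. The other 82 values under alternatives moved by less than their interval or by at most 1.5 times, and none reversed. Under the other background scaling 3 of 12 median levels moved by more than the SD over regions, all of 9-cis retinoic acid or AM580. The 9-cis retinoic acid list had the lowest coverage, 0.41 times that of DMSO.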

Other observations

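The summits of JH584304 held a recurring distance. Among the 17 distances between neighbouring regions that every list held, 3 were alike to within 15 bp in all 5 lists. They were those from the region at 83613 to the one at 85477 (1834 to 1845 bp over the lists), from 92732 to 94602 (1836 to 1844 bp) and from 108859 to 110724 (1827 to 1840 bp). With DMSO they were 1836, 1837 and 1835 bp. The median distance between neighbours with DMSO was 2543 bp, with a range of 1835 to 8343. The window of 15 bp was chosen after the distances were seen, and within 5 bp in every list 0 distances recurred 3 times. Whether the contig's sequence repeats at this distance was not tested, since no genome sequence was used here.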
